A study of Homo sapiens with 12 samples.

Results

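The keratin family was followed in PE/CA-PJ41, a human oral squamous cell carcinoma line, as it grew untreated, with human plasma at 10%, or with platelet-rich plasma (PRP) at the same 10%, both for 48 h. The members were chosen by name: every row of the deposited gene tables called KRT followed by a number and at most 1 letter, which leaves out the keratin-associated proteins. This gave 55 keratins of 20375 genes listed, 29 of type I and 26 of type II. Messenger RNA was measured by sequencing polyadenylated RNA in 12 libraries, 4 of each group. All groups are the same line and differ by the labels only in what was added to the culture. How long the control cells were cultured is not stated. Nothing says that libraries of a group came from separate cultures, so a p-value here reflects the spread among libraries, which could be purely technical. Plasma and PRP were compared with the same 4 control libraries, so those comparisons are not independent of each other. In RNA from a whole culture, fewer cells of a kind and less RNA per cell cannot be told apart.

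Keratins are the intermediate filament proteins of epithelial cells. A type I keratin pairs with a type II keratin, and the pairs assemble into filaments that are anchored at desmosomes and hemidesmosomes and give the epithelium its resistance to strain. In stratified epithelium of the mouth and skin, dividing basal cells carry KRT5 with KRT14 and KRT15, cells that leave the basal layer switch to other pairs such as KRT4 with KRT13 in non-keratinizing oral lining, and wounded or hyperproliferative epithelium carries KRT6A, KRT6B, KRT6C, KRT16 and KRT17, called stress keratins here. KRT8, KRT18, KRT19, KRT7 and KRT20 belong to simple epithelia, and KRT8, KRT18 and KRT19 are often present in squamous carcinoma. The class called hair keratins here joins the keratins of hair and nail with those of the inner root sheath and KRT75 of the companion layer.

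Total estimated reads ran from 36258955 to 41976136 per library, and the squamous identity of the line showed in its markers. Levels are in TPM, the share of a library's transcripts that a gene makes up, which divides reads by transcript length and can be compared between genes. Of the named squamous markers, KRT5, KRT14 and KRT13 were all present, as were TP63, the transcription factor of squamous epithelium (96.9 ± 4.51 TPM in control, 100.4 ± 8.27 in the plasma group and 96.9 ± 5.05 in the PRP group, SD, n = 4), SFN, CDH1 and DSG3. The summed level of these 7 markers was 8091 to 9235 TPM in control libraries, 11881 to 12937 in plasma libraries and 11908 to 13272 in PRP libraries, and KRT5, KRT14 and KRT13 account for the higher sums. Of the others, SFN was at 877 ± 105, 717 ± 47.1 and 812 ± 22.5 TPM in control, plasma and PRP, CDH1 at 91.8 ± 16.1, 88.6 ± 10.9 and 87.9 ± 12.4, and DSG3 at 33.8 ± 1.70, 27.2 ± 3.20 and 27.2 ± 1.61. Markers of other cells were far lower: the 6 fibroblast markers summed to 12.8 to 21.8 TPM in all libraries, the 4 platelet markers to 0.305 to 0.693, with PF4 and GP9 at 0 in every library, and the 4 erythroid markers to 1.05 to 2.83, with HBB and ALAS2 at 0. The 3 endothelial markers summed to 12.4 to 24.1 TPM in control and 29.4 to 38.1 in the treated groups, mostly from CDH5, and the leukocyte markers to 2.93 to 4.02 and 5.36 to 7.21, mostly from CD14. The part of these markers in the keratin results was not tested.

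The line carried a mixed keratin profile in which basal, simple and stress keratins were all abundant (plot of keratin levels in the 12 libraries). Between 19 and 20 of the 55 keratins reached 1 TPM in a library. In control libraries KRT5 was the highest, at 4784 ± 219 TPM (SD, n = 4), and ranked 15 among all genes by mean TPM. KRT17 at 2696 ± 171, KRT14 at 2465 ± 269 and KRT19 at 2372 ± 85.2 TPM followed, and neighbours among these 3 had overlapping libraries. KRT8 at 1318 ± 63.9 and KRT6A at 1032 ± 159 TPM came next, and then KRT18 at 623 ± 28.2 TPM. All keratins together made up 1.65% ± 0.0742 of the TPM of a control library.

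**Figure D1:**
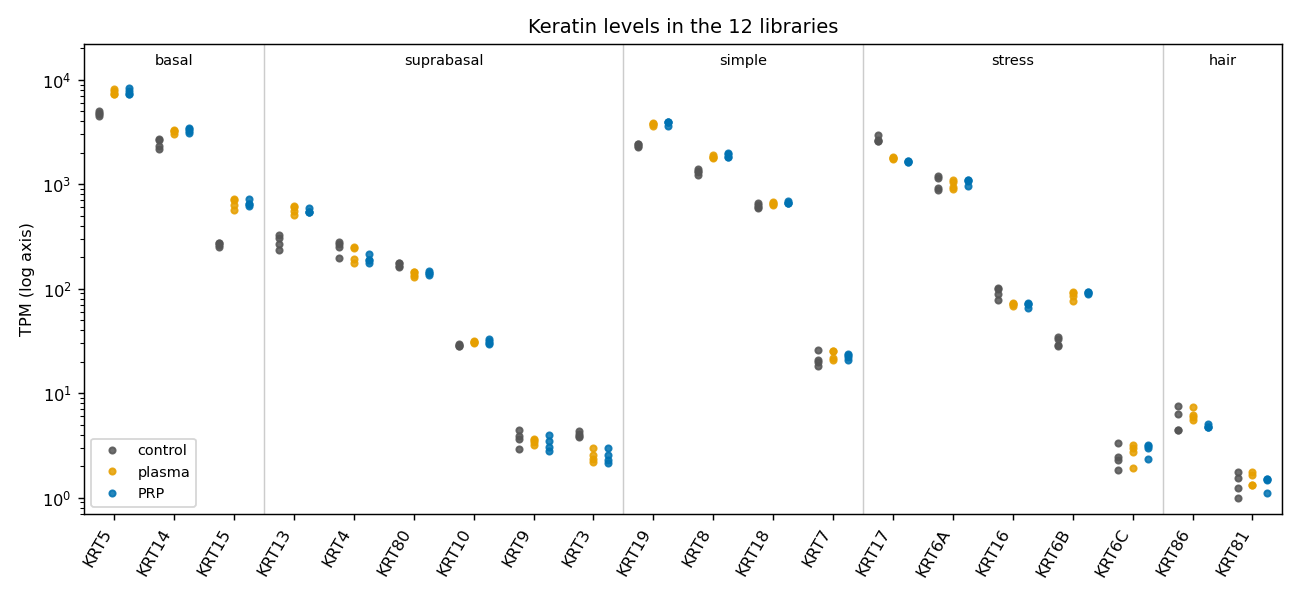
TPM on a log axis of the 20 keratins that reached 1 TPM in at least 4 libraries, 1 point per library, for control (grey), plasma (orange) and PRP (blue), ordered by class and by level. KRT5, KRT15, KRT13, KRT19, KRT8 and KRT6B sit higher and KRT17, KRT16 and KRT3 lower in both treated groups than in control, while KRT6A overlaps between groups.

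The keratin genes were tested for differences where they reached 1 TPM in at least 4 libraries, which 20 did. With either treatment KRT5, KRT14, KRT15, KRT13, KRT19, KRT8 and KRT6B were higher than in control, and KRT17, KRT16, KRT80 and KRT3 were lower. With plasma, 11 of the 20 differed from control at an adjusted p under 0.05 (limma-trend on log2(TPM + 1), two-sided, Benjamini-Hochberg over the 12517 genes tested), against 49.3% of all genes tested. Of these, 7 were higher, against 20.3% of all genes, and 4 were lower, against 29%. With PRP, 13 of the 20 differed, against 53.1% of all genes, 8 of them higher (21.7% of all genes) and 5 lower (31.5%). So many genes differed from control that the share of keratins called is close to that of genes at large, and the following accounts are of which keratins moved and by how much.

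The same 7 keratins were called higher in both comparisons, and the same 4 lower. Such overlap is not particular to keratins, since the control libraries are shared and 0.0639% of all genes were called between PRP and plasma. KRT18, higher, and KRT4, lower, were called with PRP only, and no keratin was called in opposite directions. The median log2 change over the 20 keratins was 0.10 with plasma and 0.09 with PRP, where that over all tested genes was -0.05 and -0.06. The median gene of a library differed from control by -0.06 on the log2 scale with either treatment. Centring each library on it called 9 keratins higher and 4 lower with either treatment, while the split over all genes became 26.4% higher and 22.4% lower with plasma and 28.2% and 24.1% with PRP. The libraries of the groups did not overlap for 12 of the 20 keratins with plasma, where 43.9% of all genes did not, and for 11 with PRP, where 46.8% did not.

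**Figure D2:**
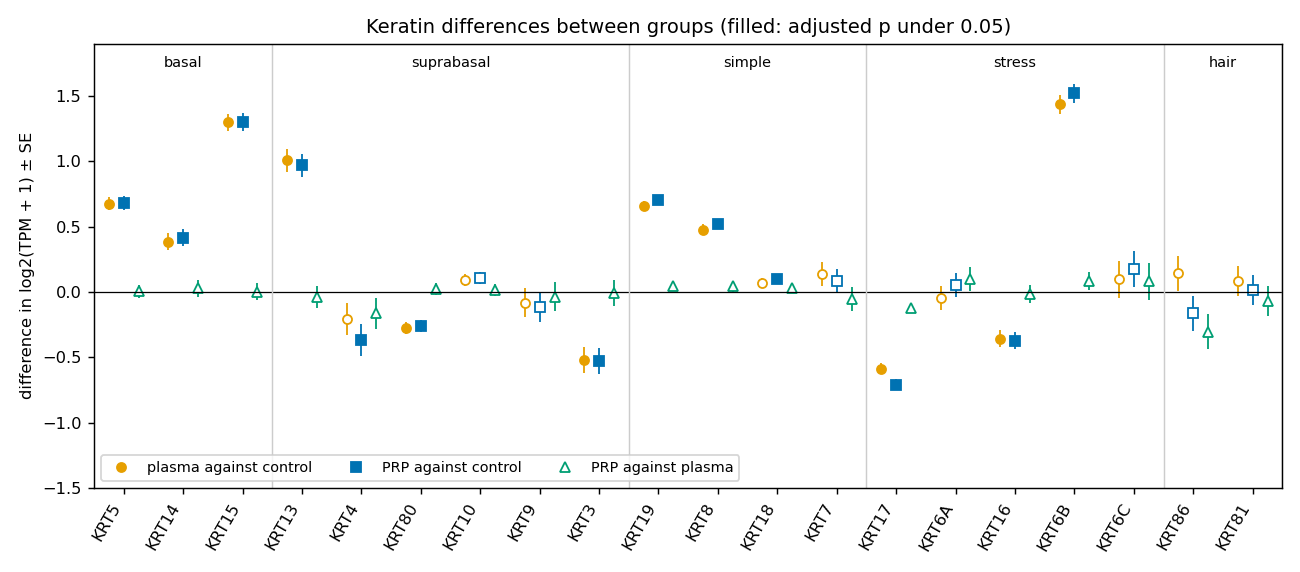
Difference in log2(TPM + 1) with its SE for the 20 tested keratins, for plasma against control (orange circles), PRP against control (blue squares) and PRP against plasma (green triangles). Filled symbols passed an adjusted p of 0.05. KRT6B, at 1.44 and 1.52, and KRT15, at 1.30 in both, lie highest, KRT17, at -0.59 and -0.71, lies lowest, and no green symbol is filled.

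Sequence before a transcription start was at hand in the RefSeq promoter table for 34 of the 55 keratins, 6 of them tested (KRT3, KRT4, KRT5, KRT8, KRT9 and KRT10). KRT5 is shown because it was the most abundant keratin and rose, and KRT3, which fell in both groups, and KRT4, called lower with PRP, because they lie next to each other on the same chromosome. Each run is the 250 bases that end just before the start, read 5′ to 3′ on the minus strand of GRCh38.p14, with capitals for a match to a searched motif.
KRT5, chr12:52520395-52520644: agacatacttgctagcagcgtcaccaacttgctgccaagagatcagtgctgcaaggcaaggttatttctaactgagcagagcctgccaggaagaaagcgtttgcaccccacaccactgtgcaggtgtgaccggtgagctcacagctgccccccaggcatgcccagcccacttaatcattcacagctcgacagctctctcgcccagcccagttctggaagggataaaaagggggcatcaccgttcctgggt
KRT3, chr12:52796118-52796367: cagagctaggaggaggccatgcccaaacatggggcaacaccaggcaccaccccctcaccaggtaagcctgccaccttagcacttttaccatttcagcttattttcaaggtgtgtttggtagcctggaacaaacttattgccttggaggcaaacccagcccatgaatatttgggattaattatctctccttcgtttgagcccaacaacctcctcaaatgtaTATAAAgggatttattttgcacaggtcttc
KRT4, chr12:52814117-52814366: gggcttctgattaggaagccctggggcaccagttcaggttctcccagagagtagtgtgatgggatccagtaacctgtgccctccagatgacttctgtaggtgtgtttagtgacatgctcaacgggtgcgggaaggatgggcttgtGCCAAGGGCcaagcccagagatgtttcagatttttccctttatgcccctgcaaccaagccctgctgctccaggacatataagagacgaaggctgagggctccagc
The capitals in KRT3 are the TATA box letters TATAAA, which begin 30 bases before the start, and those in KRT4 are a match to the AP-2 letters GCCNNNGGC, 105 bases before it. KRT5 held no match to any motif searched. The search covered both strands of the 300 base window, which adds 50 bases after the start, and matches of different motifs may share bases. A single window was kept per keratin, while the shares of all windows count every window of a gene. For some keratins, KRT8 among the tested ones, the start used lay inside the annotated span of the gene. TATAAA was found for 20 of the 34 keratins, where 11.5% of all 35097 promoter windows hold it, but for 2 of the 6 tested ones, KRT3 and KRT10. The AP-2 letters were found for 5 of the 34 (23.2% of all windows), the Sp1 letters GGGCGG for 6 (44.9%) and the AP-1 letters TGANTCA for 0 (7.7%). A match is a description of the letters, and a missing match says only that these letters are not in this window.

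The basal keratins were all called higher, 3 of 3 with plasma and with PRP. Beside this and the class counts that follow, 20.3% of all genes tested were higher and 29% lower with plasma. With PRP these shares were 21.7% and 31.5%. KRT5, the type II partner of basal cells, stood at 4719.6, 4531, 4832 and 5055 TPM in control, at 8164, 7334, 7726 and 7356 with plasma and at 8295, 7839.8, 7299.5 and 7274 with PRP. Every treated library was above every control library, and the treated groups overlapped. The difference in log2(TPM + 1) was 0.68 ± 0.05 (SE; adjusted p = 1.96e-07 by limma-trend) with plasma and 0.68 ± 0.05 (adjusted p = 1.42e-07) with PRP. From rank 15 in control, KRT5 moved to rank 3 of all genes by mean TPM in either treated group.

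KRT14, the type I partner of KRT5, also rose. It was at 2155, 2326, 2668 and 2711 TPM in control, at 3245, 3327, 3229 and 3016 with plasma and at 3369, 3424, 3228 and 3069.8 with PRP. The groups did not overlap with control, although control replicates 1 and 2 lay below replicates 3 and 4. On the log2 scale this was 0.38 ± 0.07 (adjusted p = 0.000271, limma-trend) and 0.41 ± 0.07 (adjusted p = 0.000122). The ratio of KRT5 to KRT14 TPM, which is a description with no test, went from 1.95 ± 0.168 in control to 2.39 ± 0.133 in the plasma group and 2.35 ± 0.0902 in the PRP group (SD, n = 4).

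KRT15, a second type I keratin of basal cells, rose most among the basal keratins. Its levels were 261, 275, 253 and 271 TPM in control, 626, 571, 704 and 723 with plasma and 640.3, 643, 619 and 717 with PRP. The lowest treated library was well above the highest control library. This is a log2 difference of 1.30 ± 0.07 with plasma (adjusted p = 8.01e-09, limma-trend) and 1.30 ± 0.07 with PRP (adjusted p = 5.81e-09). Relative to KRT14, its TPM went from 0.109 ± 0.0131 to 0.206 ± 0.0296 and 0.201 ± 0.0220.

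The suprabasal and differentiation keratins did not move together. Of the 15 in this class 6 were tested, of which plasma had 1 higher and 2 lower and PRP had 1 higher and 3 lower. KRT13, the type I keratin of cells above the basal layer in the oral lining, was the one that rose. It was at 237, 266, 309 and 325 TPM in control, 549, 508, 606 and 619 with plasma and 546, 543, 538 and 588 with PRP. No treated library reached down to the control range. The log2 difference was 1.01 ± 0.09 (adjusted p = 6.18e-07, limma-trend) with plasma and 0.97 ± 0.09 (adjusted p = 7.16e-07) with PRP.

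KRT4 is the type II partner of KRT13 in oral lining and was not called higher in either group. Its levels were 195, 251, 269 and 279 TPM in control, 192, 177, 248 and 246 with plasma and 186, 188, 174 and 215 with PRP. The groups overlapped, since control replicate 1 lay among the treated libraries. With plasma the log2 difference was -0.21 ± 0.12 (adjusted p = 0.179, limma-trend), and with PRP KRT4 fell by 0.37 ± 0.12 (adjusted p = 0.0202). The call with PRP was lost under median centring (adjusted p = 0.0804), with estimated reads in place of TPM (adjusted p = 0.061) and without control replicate 3, control replicate 4 or PRP replicate 3 (adjusted p = 0.0542, 0.0623 and 0.0578), over a range of 0.00254 to 0.0804 in 19 alternatives, while KRT4 was called lower with plasma without control replicate 1 (adjusted p = 0.0292). The ratio of KRT13 to KRT4 TPM was 1.15 ± 0.0644 in control, 2.67 ± 0.227 with plasma and 2.91 ± 0.147 with PRP (SD, n = 4; no test).

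KRT3, a type II keratin best known from the corneal epithelium, was low and fell in both groups. It was at 4.08, 3.88, 3.81 and 4.38 TPM in control, 2.33, 2.19, 2.57 and 2.99 with plasma and 2.30, 2.13, 3.02 and 2.58 with PRP. All treated libraries were below all control libraries. On the log2 scale this was -0.52 ± 0.10 with plasma (adjusted p = 0.000674, limma-trend) and -0.53 ± 0.10 with PRP (adjusted p = 0.000524). Its type I partner in the cornea, KRT12, was at 0 in every library.

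KRT80, a type II keratin found in many epithelia, fell slightly. The control libraries stood at 164, 178, 174 and 159 TPM, the plasma libraries at 144, 145, 137 and 131 and the PRP libraries at 141, 148, 140.0 and 135. The groups did not overlap with control. This is a log2 difference of -0.28 ± 0.05 (adjusted p = 0.000213, limma-trend) and -0.26 ± 0.05 (adjusted p = 0.000327).

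KRT10, the type I keratin of keratinizing suprabasal cells, was present at 28.8 ± 0.635 TPM in control, 30.8 ± 0.510 in the plasma group and 31.1 ± 1.69 in the PRP group (SD, n = 4). All plasma libraries were above all control libraries, but the difference did not pass (log2 0.09 ± 0.05, adjusted p = 0.101 by limma-trend; 0.11 ± 0.05 and adjusted p = 0.0611 with PRP). It passed in both under median centring, at a log2 difference of 0.15 and 0.17, and with estimated reads, and over 19 alternatives its adjusted p ran from 0.00382 to 0.272 with plasma and from 0.00165 to 0.317 with PRP. KRT1, the type II partner of KRT10, reached at most 0.676 TPM in any library, and the ratio of KRT1 to KRT10 TPM was 0.0211 ± 0.00294 in control. KRT9, the type I keratin of palm and sole, was at 3.71 ± 0.638, 3.42 ± 0.193 and 3.33 ± 0.508 TPM and was not called.

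Of the simple epithelial keratins, 4 of 5 were tested, and 2 rose with plasma and 3 with PRP. KRT19, the smallest keratin and one that marks several carcinomas, stood at 2337, 2268, 2448 and 2435 TPM in control, 3785, 3592, 3856 and 3735 with plasma and 3957, 3906, 3643 and 3956 with PRP. The groups did not overlap with control. The log2 difference was 0.66 ± 0.04 (adjusted p = 2.17e-08, limma-trend) and 0.70 ± 0.04 (adjusted p = 8.1e-09). KRT19 moved from rank 64 to rank 23 by mean TPM in both treated groups.

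KRT8, the type II keratin of simple epithelium, was at 1237, 1309, 1390.1 and 1338 TPM in control, 1831, 1793, 1891 and 1829 with plasma and 1945, 1969, 1829 and 1824 with PRP. Each treated library was above each control library. On the log2 scale this was 0.48 ± 0.04 (adjusted p = 4.42e-07, limma-trend) with plasma and 0.52 ± 0.04 (adjusted p = 1.6e-07) with PRP.

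KRT18, the type I partner of KRT8, showed only small differences. It was at 658, 632, 607 and 594 TPM in control, 662, 633, 675 and 642 with plasma and 696, 656, 667 and 654 with PRP. The groups overlapped at control replicate 1. This is a log2 difference of 0.07 ± 0.04 with plasma (adjusted p = 0.137, limma-trend) and 0.10 ± 0.04 with PRP (adjusted p = 0.0304). The PRP call was lost without control replicate 3, control replicate 4, PRP replicate 1 or PRP replicate 3 (adjusted p = 0.0766, 0.0959, 0.0939 and 0.0542), over a range of 0.000407 to 0.0959 in 19 alternatives. The call with plasma was gained under median centring and with estimated reads, at a log2 difference of 0.13 in each, and without control replicate 1. The ratio of KRT8 to KRT18 TPM was 2.12 ± 0.188 in control, 2.81 ± 0.0367 with plasma and 2.83 ± 0.115 with PRP (SD, n = 4; no test).

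KRT7, a type II keratin of glandular epithelium, was at 21.2 ± 3.19 TPM in control, 23.3 ± 2.31 in the plasma group and 22.4 ± 1.27 in the PRP group and was not called. Without control replicate 1, which was its highest control library at 25.7 TPM, KRT7 was called higher with plasma at a log2 difference of 0.23. KRT20, the keratin of intestinal lining and Merkel cells, did not pass the level for testing and reached at most 0.440 TPM.

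The stress keratins split, with 1 of 5 higher, 2 lower and 2 not called in both comparisons. KRT17, a type I keratin that appears after wounding and in carcinoma, was among the 4 highest keratins in control at 2565, 2947, 2621 and 2652 TPM. It was at 1799.9, 1799, 1823 and 1749 TPM with plasma and 1683, 1638, 1616 and 1651 with PRP. The 3 groups did not overlap at all. The log2 difference was -0.59 ± 0.04 with plasma (adjusted p = 7.52e-08, limma-trend) and -0.71 ± 0.04 with PRP (adjusted p = 1.07e-08). KRT17 went from rank 48 to rank 90 with plasma and 97 with PRP, while KRT14, which lies near it on the chromosome, went from rank 61 to rank 35 in both.

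KRT16, the type I stress keratin that pairs with KRT6A, also fell. Its levels were 78.2, 88.7, 102 and 98.6 TPM in control, 72.1, 71.3, 73.1 and 68.0 with plasma and 72.8, 71.2, 71.5 and 65.8 with PRP. The treated libraries were all below control, closest to control replicate 1. On the log2 scale this was -0.36 ± 0.07 (adjusted p = 0.000631, limma-trend) and -0.37 ± 0.07 (adjusted p = 0.000389).

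KRT6B, a type II stress keratin, rose most of all keratins tested. It was at 29.1, 28.1, 34.3 and 33.3 TPM in control, 93.5, 90.2, 84.4 and 76.3 with plasma and 93.3, 92.2, 90.9 and 88.0 with PRP. The treated libraries were all far above control. This is a log2 difference of 1.44 ± 0.07 with plasma (adjusted p = 5.4e-09, limma-trend) and 1.52 ± 0.07 with PRP (adjusted p = 2.6e-09).

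KRT6A, the near copy of KRT6B and the main type II stress keratin of the line, was not called. It was at 1032 ± 159 TPM in control, with libraries from 878 to 1192, at 993 ± 87.5 with plasma and at 1061.7 ± 61.8 with PRP (SD, n = 4). The groups overlapped throughout, and the 95% interval of the log2 difference ran from -0.24 to 0.15 with plasma and from -0.15 to 0.25 with PRP. The sign of both values changed with the libraries kept and, with plasma, under median centring. The ratio of KRT6A to KRT6B TPM was 33.0 ± 2.14 in control, 11.5 ± 0.477 with plasma and 11.6 ± 0.426 with PRP. KRT6C, the third copy, was at 2.47 ± 0.622, 2.70 ± 0.556 and 2.89 ± 0.383 TPM and was not called.

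The KRT6 genes resemble each other so closely that reads can be split between them in ways that cannot be checked here. In GENCODE 29 transcripts, 40.5% of the 31 base words of KRT6A also occur in KRT6B, and 52.2% of KRT6A, 58.3% of KRT6B and 61.7% of KRT6C words occur in another keratin of the tables. The levels of these 3 genes are therefore uncertain relative to each other. KRT14, KRT16 and KRT17 share 46.1%, 33.1% and 30.1% of their words with some other gene named KRT, and 21.1%, 16.8% and 5.8% with a keratin of the tables. KRT18 shares 46.1% and KRT8 19.8% with other genes named KRT, nearly all outside the tables, so these 5 are uncertain as well. None of the rows was named as a keratin pseudogene. KRT5, KRT15, KRT13, KRT4 and KRT80 share at most 6%, KRT3 9.8% and KRT19 10.6%. KRT8 and KRT18 overlap by 1006 bases as annotated, and the sources used here do not say if reads were assigned by strand.

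The hair keratins were nearly silent. Of 26, 2 were tested and none was called in any comparison: KRT86, at 5.66 ± 1.54 TPM in control, 6.23 ± 0.786 in the plasma group and 4.84 ± 0.173 in the PRP group, and KRT81, at 1.38 ± 0.336, 1.51 ± 0.219 and 1.39 ± 0.194 TPM (SD, n = 4). The annotated span of KRT81 lies inside that of KRT86, and 52.3% of the words of KRT81 occur in another gene named KRT, so these are uncertain too.

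Below the level for testing, 28 keratins had some reads and 7 had none. A fit without the filter on low values covered 17662 genes and called 4 of these 28 against control in both comparisons, against 35.4% of all genes with plasma and 38.8% with PRP. These 4 are named here after their values were seen (plot of keratins below the level for testing). KRT1, the suprabasal partner of KRT10, was at 0.632, 0.634, 0.676 and 0.491 TPM in control, 0.224, 0.330, 0.130 and 0.309 with plasma and 0.195, 0.151, 0.147 and 0.0803 with PRP. Its libraries did not overlap with control, and the adjusted p was 0.000362 with plasma and 3.82e-05 with PRP (limma-trend, no filter). KRT1 rested on 29 to 40 estimated reads per control library and on 5 to 19 in a treated one.

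KRT75, a type II keratin of the hair companion layer, was also lower, at 0.525 ± 0.0680 TPM in control, 0.256 ± 0.116 in the plasma group and 0.168 ± 0.0287 in the PRP group (SD, n = 4; adjusted p = 0.00322 and 0.000378, limma-trend, no filter). The type I hair keratins KRT31 and KRT33A were higher. KRT31 went from 0.346 ± 0.0973 TPM to 0.862 ± 0.125 and 0.886 ± 0.121 (adjusted p = 0.00026 and 0.000164, limma-trend, no filter), and KRT33A from 0.191 ± 0.137 to 0.741 ± 0.175 and 0.715 ± 0.0383 (adjusted p = 0.000318 and 0.000332). The groups of both did not overlap with control. KRT31 and KRT33A share 32.4% and 46.8% of their words with other genes named KRT, and KRT33A had 3, 4, 3 and 11 estimated reads in the control libraries.

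**Figure D3:**
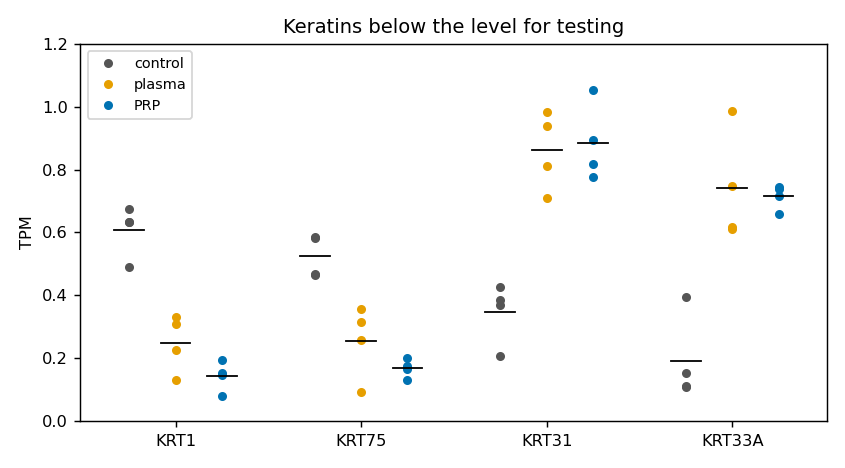
TPM of the 4 keratins below the level for testing that differed from control in the fit without a filter, 1 point per library and a bar for the group mean (control grey, plasma orange, PRP blue). KRT1 and KRT75 lie lower and KRT31 and KRT33A higher in both treated groups, with only 1 value above 1 TPM.

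The remaining keratins stayed below 1 TPM or were absent. KRT78 reached 0.831, KRT23 0.808 and KRT32 0.788 TPM at most, KRT222 0.630 and KRT34 0.505, and KRT33B 0.365, KRT74 0.331, KRT83 0.245 and KRT73 0.183. KRT84 and KRT79 reached 0.116 and 0.114 TPM at most. A further 12 keratins had reads but never exceeded 0.1 TPM, and they include KRT2, the late differentiation keratin of skin, KRT76, a keratin of the hard palate, KRT77, the inner root sheath keratin KRT71 and the hair keratins KRT35, KRT36, KRT37, KRT38, KRT39, KRT40, KRT82 and KRT85. KRT12, KRT24, KRT25, KRT26, KRT27, KRT28 and KRT72 were at 0 in all 12 libraries, and a count of 0 in the library with the fewest reads allows up to 0.0827 CPM, from 3 reads and for counting error only.

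The total of the family was higher in the treated libraries and its makeup differed (plot of keratin TPM by class). The summed TPM of all keratins was 15590, 16084, 16964 and 17168 in control, 22281, 21209, 22070 and 21162 with plasma and 22805, 22273, 21082 and 21280 with PRP. All treated libraries were above all control libraries, and the share of keratins in all TPM went from 1.65% ± 0.0742 to 2.17% ± 0.0579 and 2.19% ± 0.0818 (SD, n = 4). Sums over members are given with no test.

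Within the keratin TPM, the basal keratins went from 45.7% ± 1.02 in control to 53.1% ± 0.679 in the plasma group and 53.1% ± 0.849 in the PRP group. The stress keratins went the other way, from 23.4% ± 0.898 to 13.6% ± 0.554 and 13.1% ± 0.316. Their summed TPM went from 3854 to 2946 and 2873, and most of this was KRT17, which went from 2696 to 1793 and 1647. KRT16 fell from 91.8 to 71.1 and 70.4 TPM, KRT6B rose from 31.2 to 86.1 and 91.1, and KRT6A and KRT6C were not called. The simple keratins went from 26.4% ± 0.722 to 28.9% ± 0.546 and 29.5% ± 0.578, and the suprabasal keratins made up 4.49% ± 0.287, 4.45% ± 0.390 and 4.23% ± 0.251. The summed TPM of type II relative to type I went from 0.863 ± 0.0289 to 1.02 ± 0.0314 and 1.03 ± 0.0378.

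**Figure D4:**
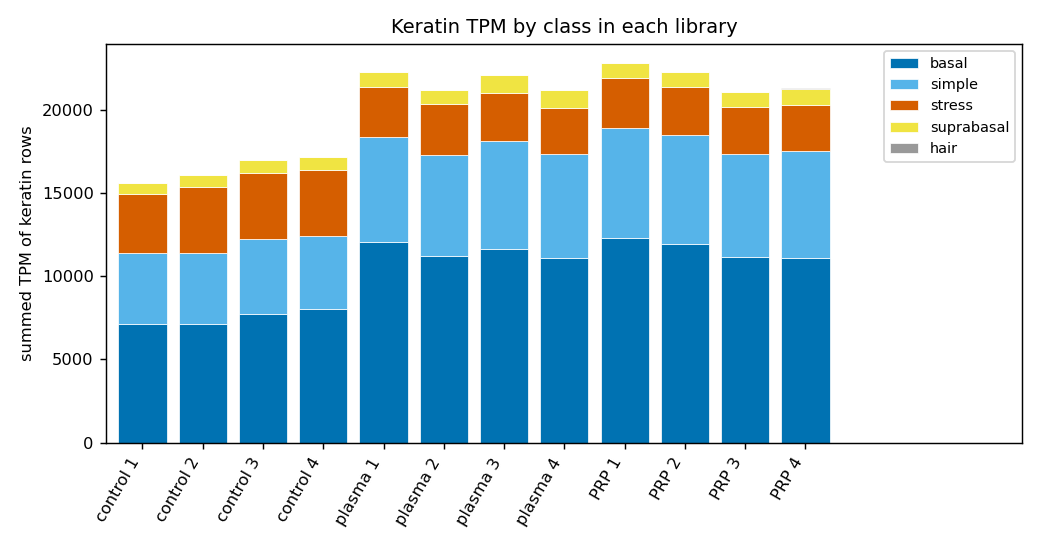
Summed TPM of the keratin rows in each of the 12 libraries, stacked by class: basal, simple, stress, suprabasal and hair, the last too low to see. Totals run from 15590 to 17168 in control and from 21082 to 22805 in the treated libraries, with a taller basal and simple part and a shorter stress part after either treatment.

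No keratin differed between PRP and plasma beyond the threshold. Of the 20 tested, 0 were called (limma-trend; also 0 with limma voom on estimated reads), where 0.0639% of all genes were. At an unadjusted p under 0.05 there were 2, KRT17 and KRT86, where 7.98% of all genes had such a p, and the libraries of the same 2 did not overlap, where 5.22% of all genes did not. KRT17 had a log2 difference of -0.12 ± 0.04 (95% interval -0.21 to -0.04, adjusted p = 0.424 by limma-trend), with all 4 PRP libraries below all 4 plasma libraries. For KRT86 the log2 difference was -0.30 ± 0.13 (adjusted p = 0.594). Among the keratins called higher against control, the 95% interval of the difference between PRP and plasma was -0.06 to 0.23 for KRT6B and -0.14 to 0.15 for KRT15. It was -0.22 to 0.15 for KRT13 and -0.10 to 0.11 for KRT5. A difference within these bounds is not excluded.

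Keratin genes lie in 2 clusters, and neighbours within them moved in different directions (plot of keratin genes in order). By RefSeq positions on GRCh38.p14, 27 of the 55 lie on chromosome 12, which are the type II genes and KRT18, and 28 on chromosome 17. On chromosome 17 the genes KRT13, KRT15, KRT19, KRT9, KRT14, KRT16 and KRT17 follow each other within 123595 bases (chr17:41500981-41624575). The first 3 of these and KRT14 rose, KRT9 was not called, and KRT16 and KRT17, at the end of the row, fell. On chromosome 12 KRT6B, KRT6C, KRT6A and KRT5 follow each other; KRT6B and KRT5 at the ends rose, and KRT6C and KRT6A between them were not called, with 35029 bases between KRT6B and KRT6A. KRT3 and KRT4, whose sequences before the start are given above, are also neighbours on chromosome 12.

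**Figure D5:**
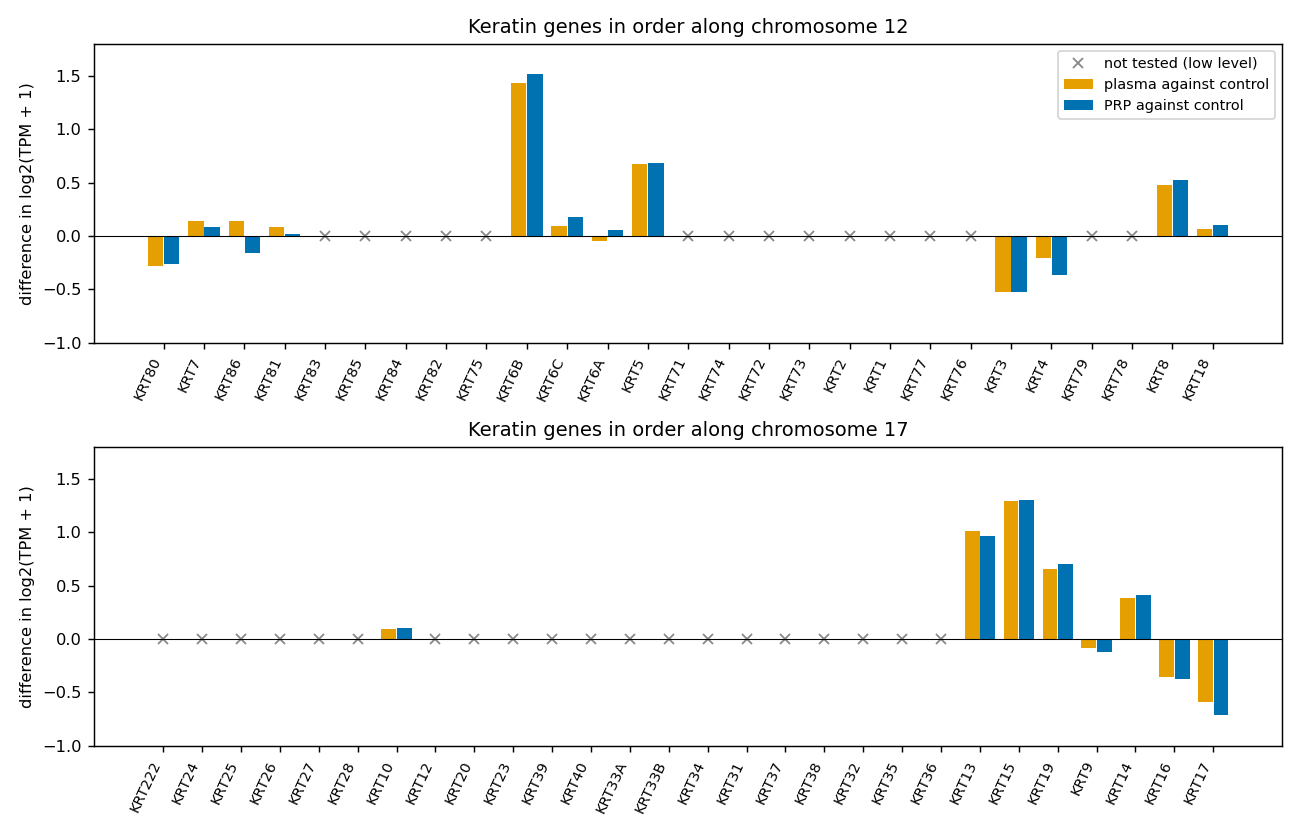
Difference in log2(TPM + 1) of plasma (orange) and PRP (blue) against control for the keratin genes of chromosomes 12 and 17, in their order along the chromosome and not to scale of distance; crosses are keratins too low to test. On chromosome 17 the run from KRT13 to KRT14 lies above 0 except KRT9, and KRT16 and KRT17 lie below.

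Other intermediate filament genes, linkers and partners of keratin filaments, and transcription factors were counted from lists by role. Of the other intermediate filament genes, 10 were tested, and 5 were higher and 3 lower with either treatment, where 20.3% of all genes were higher and 29% lower with plasma and 21.7% and 31.5% with PRP. The nuclear lamin LMNB2 rose from 161 ± 9.23 TPM in control to 244 ± 4.08 in the plasma group and 261 ± 18.3 in the PRP group, and the neurofilament gene NEFL from 7.58 ± 1.16 to 12.4 ± 0.661 and 15.0 ± 0.323 (SD, n = 4). The neurofilament gene NEFM fell from 23.3 ± 3.16 TPM to 12.1 ± 1.67 and 14.1 ± 1.62, and BFSP1, a lens filament gene, from 6.97 ± 1.26 to 3.03 ± 0.204 and 3.33 ± 0.221. The largest adjusted p among these 8 differences was 0.000151, for NEFM with PRP (limma-trend).

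Of the linkers and partners of keratin filaments, 17 were tested, with 3 higher and 6 lower with plasma and 3 higher and 5 lower with PRP, near the same shares of all genes. TCHP, which encodes trichoplein, a protein that binds keratin filaments, rose from 4.32 ± 0.170 TPM to 8.91 ± 0.546 and 10.2 ± 0.517. FBF1, a partner of trichoplein, rose from 4.58 ± 0.713 to 7.20 ± 0.430 and 6.98 ± 0.146. FAM83H, which recruits casein kinase to keratin filaments, fell from 154 ± 6.07 to 122 ± 7.29 and 119 ± 9.41 TPM, while that kinase, CSNK1A1, rose from 145 ± 3.31 to 174 ± 1.59 and 181 ± 6.63 (SD, n = 4). The largest adjusted p among these 8 differences was 0.000237, for FAM83H with plasma (limma-trend).

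Of the transcription factors listed as regulators of keratin genes or of keratinocytes, 28 were tested. With plasma 7 were higher and 7 lower, and with PRP 7 higher and 8 lower, also near the shares of all genes. Whether they act on the keratins of this line was not tested. ELF3, an epithelial ETS factor, rose from 160.9 ± 10.96 TPM to 350 ± 16.0 and 336 ± 8.97, SOX2 from 57.6 ± 1.40 to 71.0 ± 2.93 and 73.2 ± 1.74, and CEBPB from 73.5 ± 4.09 to 95.5 ± 6.49 and 92.7 ± 3.20. FOSL1, a subunit of AP-1, fell from 124 ± 35.9 to 48.7 ± 9.99 and 51.8 ± 8.02 TPM (SD, n = 4). The largest adjusted p among these 8 differences was 0.000126, for FOSL1 with PRP (limma-trend). No gene of the 3 lists was called between PRP and plasma.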

How the data were processed

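The submitters' processing notes name Salmon and the human build hg38; the version, the transcript set and the use of strand are not given in the sources used here. Per the labels' protocols, polyadenylated RNA was captured and made into libraries with the Watchmaker kit. The deposited table of each library gives, per the file headers, TPM, estimated reads and effective length for 20375 genes. TPM recomputed from the deposited estimated reads and effective lengths was within 1% plus a small fixed allowance in TPM for all genes in every library. Because of this allowance, genes of very low level were hardly checked. The values use a decimal comma and could not be registered as counts, so no negative binomial model was run, and estimated reads entered only an alternative.

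Differences were tested with limma-trend in limma 3.58.1 under R 4.3.3, on log2(TPM + 1). The fit held all 12 libraries with 1 term per group (9 residual degrees of freedom) and the 12517 genes that reached 1 TPM in 4 or more libraries. P-values are two-sided and were adjusted by Benjamini-Hochberg, with a threshold of 0.05. Log2 changes on this scale understate those of low genes. The fit was also run on simulated data with independent libraries and few changed genes. That run does not cover data in which so many genes differ. No pair of replicates agreed within sampling noise. Called keratins shifted in log2 effective length by at most 0.04 between groups (KRT16). The alternatives were another pseudocount (0.1 TPM), no filter, median centring, limma voom on estimated reads, only the 8 libraries compared, the replicate number as a block, and libraries left out. Keratins and lists were chosen with earlier results of these data known. All tested keratins are named, and from each other list the 4 genes of smallest adjusted p against control. Of the cell type markers, 1 is not reported here.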

Additional observations from a re-analysis of the deposited data

Results flagged for a closer look

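In groups of 4 libraries, a keratin was picked out where its highest or lowest library stood far from the other 3 for the range of the group. Of 60 groups checked, 5 met this, where chance gives about 3, and all 5 were PRP groups. PRP replicate 4 was highest for KRT13, at 588.3 TPM (the others 538.1 to 545.9), and lowest for KRT6A, at 970.1 TPM (1082 to 1105), and KRT81, at 1.104 TPM (1.485 to 1.498). PRP replicate 3 was lowest for KRT19, at 3643 TPM (3907 to 3957), and highest for KRT86, at 5.096 TPM (4.718 to 4.779). KRT13 and KRT19 were called higher with PRP when either library was left out, and KRT6A, KRT81 and KRT86 were called in no setting.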

How the results depend on the processing

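The count of keratins called against control was 11 to 14 with plasma and 11 to 14 with PRP over 19 alternatives and 0 between PRP and plasma in all of them. KRT5, KRT14, KRT15, KRT13, KRT19, KRT8, KRT6B, KRT17, KRT16, KRT80 and KRT3 were called in both comparisons with control in all 19. The same replicate numbers occur in each group, but they were not taken as pairs in the main fit. The correlation of deviations was over 0.1 in 5 of the 12 pairs (-0.067 to 0.304 over all, 0.152 to 0.304 for the 3 pairs numbered 1). Only control replicate 2 with plasma replicate 2 was below 0. In both other groups, 4 of 12 libraries correlated best with their own number. Replicates 3 and 4 differed least in every group, at a chi-square per gene of 3.97, 4.78 and 7.78 in control, plasma and PRP. The largest values, 36.29, 25.33 and 22.83, all involved replicate 1. The source of this shared order was not tested. With the replicate number as a block, more of all genes were called against control than in the main fit. In that fit 11, 13 and 0 keratins were called and no keratin's call changed. Signs changed only for values that were not called. KRT6A with plasma became 0.01 under median centring, 0.017 with estimated reads and ranged from -0.12 to 0.027 with 1 library left out; with PRP it was -0.041 without the 3 libraries numbered 1 and -0.022 to 0.125 with 1 left out. KRT9 with plasma became 0.054 with estimated reads, and KRT81 with PRP ranged from -0.067 to 0.09 with 1 left out. Between PRP and plasma, without the 3 libraries numbered 1, KRT10 was -0.007, KRT15 -0.008, KRT5 -0.001 and KRT9 0.042; KRT16 was 0.026 with estimated reads and KRT3 0.001 under median centring. With 1 library left out, the ranges between PRP and plasma were KRT10 -0.018 to 0.036, KRT13 -0.093 to 0.001, KRT15 -0.063 to 0.051, KRT16 -0.037 to 0.016, KRT3 -0.073 to 0.056, KRT5 -0.033 to 0.037, KRT6C -0.029 to 0.153, KRT80 -0.01 to 0.041 and KRT9 -0.106 to 0.022. The causes of these shifts were not tested. Depth limits the keratins under 1 TPM most, since they rest on at most 43.26 estimated reads in a library.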
